A study of Mus musculus with 18 samples.

Results

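The sarcomere is the contractile unit of striated muscle, and the genes described here encode its filaments, the proteins that anchor and regulate them, and the isoforms by which slow and fast muscle fibres are told apart. They are 36 genes chosen by symbol, of 34745 gene rows measured, and all 36 symbols were found: 11 slow isoforms (Myh7, Myl2, Myl3, Tnnt1, Tnnc1, Tnni1, Tpm3, Myoz2, Csrp3, Mybpc1 and Ankrd2), 11 fast isoforms (Myh1, Myh2, Myh4, Mylpf, Myl1, Tnnt3, Tnnc2, Tnni2, Actn3, Mybpc2 and Myoz1) and 14 genes placed in neither list and called shared here (Tpm1, Tpm2, Actn2, Acta1, Actc1, Myom1, Myom2, Myom3, Ttn, Neb, Tcap, Ldb3, Mb and Des). The shared list includes genes that lean to a fibre type, such as Myom2. Polyadenylated RNA was sequenced from gastrocnemius, kidney and brain of old male wild-type C57BL/6 mice on a normal diet, 18 libraries in all: in each tissue, 3 of SeMSNs-treated mice and 3 of old control mice. SeMSNs is a nano-selenium supplement given from 18 months of age, controls received the same volume of saline by gavage, and all tissues were taken at 23 months. The labels give 6 to 10 mice per group and disagree on the dose: 5 mg/kg at 1 mg/mL, 2 times every 2 days, in the design text, and 10 mg/kg every day in the treatment protocol. They do not tie libraries to separate mice, so the spread that the p-values measure is that between libraries. Total counts were 17357799 to 22146406 per library.

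Muscle contracts when myosin heavy chains (Myh) of the thick filament, each carrying 1 essential and 1 regulatory light chain (Myl), pull on thin filaments of actin (Acta1, Actc1). Calcium releases the thin filament through troponin C, I and T (Tnnc, Tnni, Tnnt) and tropomyosin (Tpm). Most of these proteins come in a slow and a fast form from separate genes, and an adult mouse limb fibre is typed by its heavy chain: Myh7 in slow type I, Myh2 in IIa, Myh1 in IIx and Myh4 in IIb. The gastrocnemius of the mouse is a calf muscle made mainly of fast fibres, while the soleus beside it is rich in slow ones.

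The genes of the 3 fast heavy chains lie next to each other on mouse chromosome 11, as Myh2 (ENSMUSG00000033196, chr11:67171027-67197517), Myh1 (ENSMUSG00000056328, chr11:67200052-67224575) and Myh4 (ENSMUSG00000057003, chr11:67238029-67260446) in the deposited GRCm38 coordinates. The slow heavy chain Myh7 (ENSMUSG00000053093, chr14:54970688-54994634) lies apart from them. RefSeq starts gave a window of 250 bases upstream for 29 of the 36 genes, and 4 of these windows are shown for GRCm38.p6, 5′ to 3′, because they belong to slow genes that were highest in the same libraries (Myh7, Ankrd2) and to fast genes that were higher in all SeMSNs libraries (Myl1, Myh4). Capitals mark matches to MCAT (CATTCC on either strand), the CArG box, or TATAAA on the gene's strand.
Myh7 (chr14:54994627-54994876, minus strand): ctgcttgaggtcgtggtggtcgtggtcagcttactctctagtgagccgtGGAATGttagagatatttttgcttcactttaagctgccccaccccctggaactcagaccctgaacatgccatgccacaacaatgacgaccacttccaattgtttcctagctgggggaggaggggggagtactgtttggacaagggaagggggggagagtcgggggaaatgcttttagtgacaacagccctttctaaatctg
Ankrd2 (chr19:42035777-42036026, plus strand): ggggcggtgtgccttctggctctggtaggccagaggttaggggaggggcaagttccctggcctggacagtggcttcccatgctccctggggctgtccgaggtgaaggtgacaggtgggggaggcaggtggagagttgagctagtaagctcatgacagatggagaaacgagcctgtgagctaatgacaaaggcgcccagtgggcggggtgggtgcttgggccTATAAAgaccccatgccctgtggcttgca
Myl1 (chr1:66945057-66945306, minus strand): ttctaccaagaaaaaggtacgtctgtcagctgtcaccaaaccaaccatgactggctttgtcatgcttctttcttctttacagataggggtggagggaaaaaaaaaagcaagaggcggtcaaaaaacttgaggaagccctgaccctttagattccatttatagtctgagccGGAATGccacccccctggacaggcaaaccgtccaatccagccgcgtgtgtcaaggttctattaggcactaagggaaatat
Myh4 (chr11:67237562-67237811, plus strand): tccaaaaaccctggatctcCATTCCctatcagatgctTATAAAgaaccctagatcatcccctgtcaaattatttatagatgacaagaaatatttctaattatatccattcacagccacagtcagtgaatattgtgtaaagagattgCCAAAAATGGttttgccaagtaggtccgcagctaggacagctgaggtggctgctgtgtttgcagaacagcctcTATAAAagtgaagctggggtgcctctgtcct
In these windows MCAT, a motif known to be bound by TEAD factors, began 201 bases before the Myh7 start shown, 80 before that of Myl1 and 231 before that of Myh4. Another Myh7 start, with its window at chr14:54994550-54994799, had no MCAT match in that window. Myh4 also held a CArG box, the motif known for SRF, 104 bases before its start, and TATAAA 213 and 31 bases before it, while Ankrd2 had TATAAA 29 bases before its start. Over all members with a window, MCAT was found in 9 of 29 (31%) against 14.4% of 27025 genes, and a CArG box in 6 of 29 (20.7%) against 1.62%. An E-box (CANNTG, either strand) was found in 25 of 29 (86.2%) against 69.3%, a MEF2 motif in 2 (6.9%) against 0.592%, and TATAAA in 5 (17.2%) against 8.94%. MCAT was present in 4 of 7 fast, 3 of 11 slow and 2 of 11 shared genes. A match says only that these letters are present in the window, and where a gene had several starts a match in any window counted.

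The members were muscle transcripts in these data. In control gastrocnemius the highest level per length was that of Acta1, the skeletal actin, at 14930 ± 3668 FPKM (a value per transcript length and library size; mean ± SD, n = 3), followed by the fast troponin T Tnnt3 at 6354 ± 81.3, the fast troponin C Tnnc2 at 6339 ± 811 and the fast heavy chain Myh4 at 6299 ± 778. The last 3 were closer to each other than their spread. Titin, the spring of the sarcomere (Ttn), stood at 37.6 ± 5.48 FPKM and nebulin, which runs along the thin filament (Neb), at 188 ± 22.8. The lowest was the cardiac actin Actc1 at 12.9 ± 4.09. The 36 genes together took 16.3% to 22.2% of all counts in the 6 gastrocnemius libraries, and Myh4 alone took 3.6% to 5.79%.

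In 35 of 36 genes the lowest gastrocnemius library was above the highest kidney or brain library in FPKM. The exception was Tpm3, a tropomyosin that other cell types also make, with 9.13 FPKM in the lowest gastrocnemius library and 10.7 in the highest of the other tissues. Control gastrocnemius was above control kidney and above control brain for 36 of 36 genes (edgeR's quasi-likelihood test, Benjamini-Hochberg adjusted p under 0.05), where 28.2% and 31.7% of the 18001 genes tested were called higher in muscle. The largest adjusted p against brain was 0.000297, for Tnnt3. Of the 8 heart markers in gastrocnemius, Mybpc3, Nppb and Nkx2-5 had 0 counts in every library, which allows up to 3 counts in each. The 8 together summed to 12.5 to 36.5 CPM in controls and 9.04 to 18.7 CPM with SeMSNs. CPM stands for counts relative to library size, scaled by the TMM method. The neuron markers summed to 2.63 to 5.65 CPM and the kidney tubule markers to 0.056 to 4.03 CPM.

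**Figure D1:**
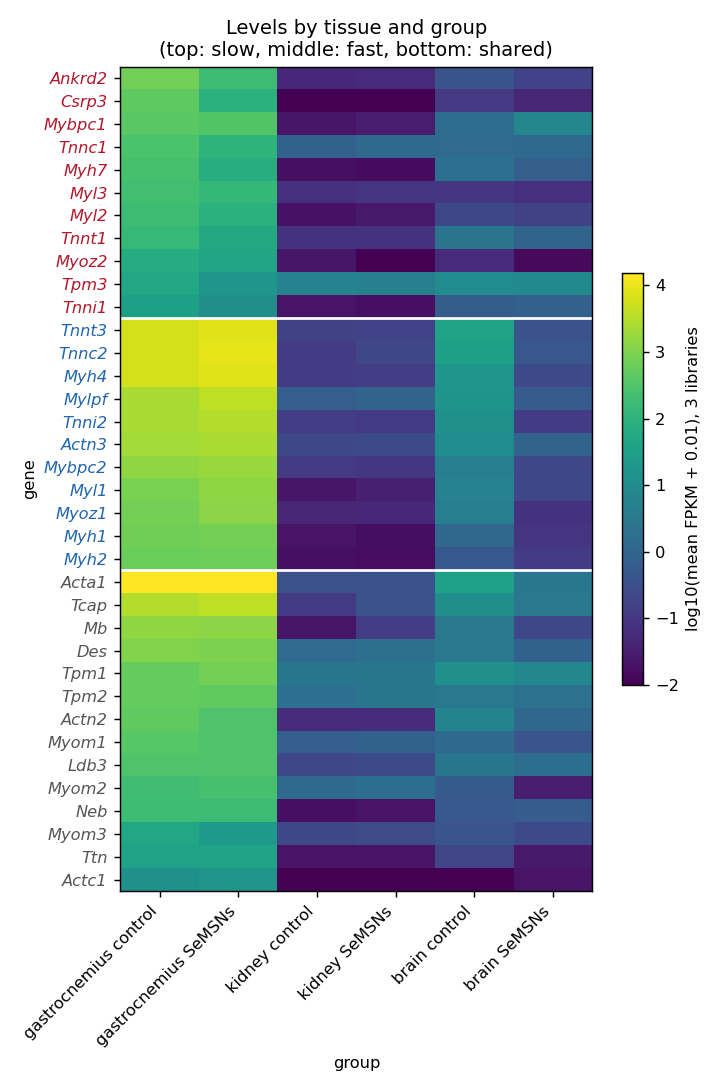
Mean FPKM (log10 of the mean plus 0.01, colour) of the 36 genes in the 6 groups of 3 libraries, with slow genes at the top, fast in the middle and shared at the bottom. The gastrocnemius columns are bright throughout, from 14930 FPKM for Acta1 to 12.9 for Actc1 in control. Control brain is brighter than SeMSNs brain for the fast genes, whose highest brain library was control 2 in 11 of 11. Myh4 was at 355.4 CPM in that library and at 1.63 and 1.78 CPM in brain controls 1 and 3.

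In gastrocnemius the question was whether SeMSNs moved slow and fast isoforms in old muscle. All 11 fast genes had higher fitted levels in SeMSNs muscle and all 11 slow genes had lower ones. The median log2 fold change was 0.33 for the fast and −1.40 for the slow genes, and the 14 shared genes were split into 6 higher and 8 lower, with a median of −0.03. Together 17 of 36 (47.2%) were above 0, against 48.9% of the 13150 genes tested, whose median was −0.01. The edgeR quasi-likelihood test, with Benjamini-Hochberg adjustment over all genes, called 0 of the 36 genes at 0.05, where it called 3 of all genes (0.0228%), all lower. At an unadjusted p under 0.05 there were 7 of 36 (19.4%), against 13% of all genes: 5 were higher and 2 lower, against 6.27% and 6.71%. DESeq2 called 1 member (2.78%) and 162 of all genes (1.23%), and limma 0 members and 4 genes (0.0304%). Since this is whole tissue, fewer fibres of a type and less RNA per fibre cannot be told apart.

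**Figure D2:**
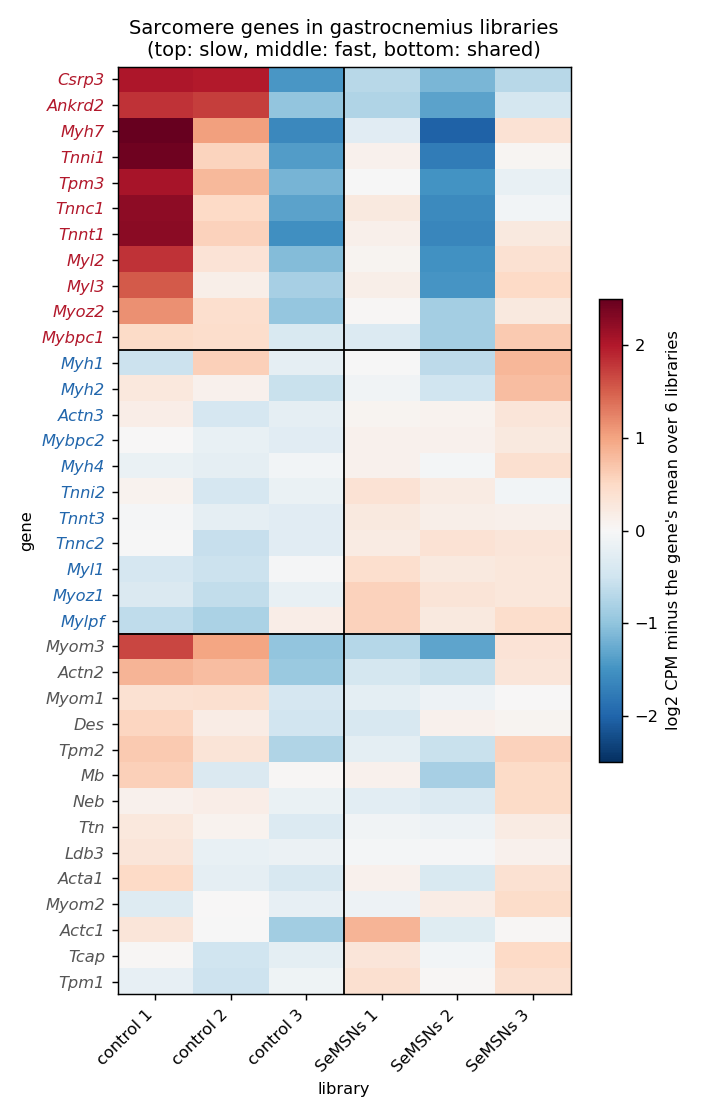
Level of each gene in each of the 6 gastrocnemius libraries, as log2 CPM minus the gene's mean over the libraries (colour, red high). Slow genes are highest in control 1 for 10 of 11 genes and control 3 sits with the SeMSNs libraries, while fast genes are mostly bluish in the controls and reddish with SeMSNs.

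The slow genes differed widely among the controls. Myh7 stood at 5324, 1859 and 300.1 CPM in control libraries 1, 2 and 3, and at 752.8, 226.7 and 1173 CPM in SeMSNs libraries 1, 2 and 3. Controls 1 and 2 were above all SeMSNs libraries, while control 3 lay between SeMSNs 2 and SeMSNs 1. The log2 fold change was −1.80 ± 0.89 (SE; adjusted p = 0.422, edgeR). The highest library was 23.5 times the lowest, the widest range of any member. Of its possible 100-base stretches 7.71% occur in the cardiac heavy chain Myh6, and Mhrt lies across it on the other strand, whose reads could not be told apart since strandedness was not given in the sources used here.

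Ankrd2 and Csrp3, which encode a stretch-responsive ankyrin repeat protein and the muscle LIM protein of the Z-disc, had the smallest p among the slow genes. Ankrd2 was at 1203, 1132 and 173 CPM in controls 1 to 3 and at 203.7, 135.6 and 253.1 CPM in SeMSNs 1 to 3. Csrp3 was at 643.9, 628.4 and 58.25 CPM in the controls and at 98.35, 72.14 and 98.3 CPM with SeMSNs. In both genes 2 controls were several times above every other library and control 3 lay among or below the SeMSNs libraries, so the groups overlapped. The log2 fold changes were −2.08 ± 0.61 for Ankrd2 and −2.31 ± 0.70 for Csrp3 (SE, n = 3 per group), both with an adjusted p of 0.312 by edgeR. Without control 3 the same edgeR test gave −2.57 with an adjusted p of 0.0104 and −2.83 with 0.00235. That fit called 3 of 36 members (8.33%), the other one being Mylpf, and 335 of all 13337 genes (2.51%).

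Tpm3, the slow tropomyosin, was at 1207, 508.1 and 129.7 CPM in the controls and at 286, 102.3 and 252.9 CPM with SeMSNs, in the same order of controls as Myh7. Its log2 fold change was −1.52 ± 0.69 (adjusted p = 0.392, edgeR), and 15.8% of its possible 100-base stretches also occur in the copy Tpm3-rs7. The other slow genes had log2 fold changes from −1.59 for Tnni1, the slow troponin I, to −0.27 for Mybpc1, the slow myosin-binding protein C, with adjusted p from 0.437 to 0.793 in edgeR. None of the 11 slow genes had groups that did not overlap.

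Across the slow list, control 1 was the highest library for 10 of 11 genes and SeMSNs 3 for the other one, Mybpc1. SeMSNs 2 was the lowest for 9 and control 3 for 2. Control 3 lay inside the SeMSNs range for 9 of 11, and controls 1 and 2 were above all SeMSNs libraries for 8 of 11. The ratio of the highest to the lowest library had a median of 11.1 over the slow genes (2.84 to 23.5), against 1.90 over the fast (1.43 to 2.79) and 1.95 over the shared ones (1.39 to 7.93). The summed level of the slow genes was 16190, 8533 and 2786 CPM in controls 1 to 3 and 4389, 2118 and 6503 CPM in SeMSNs 1 to 3.

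Leaving out 1 control changed the slow result. Without control 1 the median log2 fold change of the slow genes was −0.14, with 9 lower and 2 higher. Without control 3 it was −1.89, with all 11 lower. Without both controls 1 and 2, an alternative chosen after seeing the data in which the lone control is assumed to vary like the SeMSNs libraries, it was 0.84 with all 11 higher. The median of the fast genes was positive in each of these fits, at 0.47, 0.32 and 0.42.

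The fast genes were spread less, and their higher libraries were mostly those of SeMSNs mice. Myoz1, which encodes a calsarcin of the fast-fibre Z-disc that binds calcineurin, had the smallest p of all members. It stood at 1000, 841.9 and 1132 CPM in the controls and at 1914, 1615 and 1581 CPM with SeMSNs. All SeMSNs libraries were above all controls. The log2 fold change was 0.78 ± 0.21, a 1.72-fold difference (unadjusted p = 0.00537, adjusted p = 0.307, edgeR). DESeq2 gave 0.77 (adjusted p = 0.0244).

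The fast light chains were also higher in every SeMSNs library. Myl1, the essential light chain, stood at 2697, 2485 and 3525 CPM in controls and at 4820, 4274 and 4363 CPM with SeMSNs, a log2 fold change of 0.63 ± 0.23 (adjusted p = 0.333, edgeR). Mylpf, the regulatory light chain, stood at 3439, 3081 and 5924 CPM in controls and at 7933, 6276 and 7209 CPM with SeMSNs, a log2 fold change of 0.78 ± 0.29 (adjusted p = 0.341, edgeR). Control 3 was the highest control for both genes, and for Mylpf it came close to SeMSNs 2. Without control 3, Mylpf had a log2 fold change of 1.13 with an adjusted p of 0.0484 in edgeR. Among the troponins, Tnnc2 was at 6088, 4111 and 5018 CPM in controls and at 7086, 7816 and 7530 CPM with SeMSNs, without overlap, a log2 fold change of 0.56 ± 0.23 (adjusted p = 0.370, edgeR).

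The main fast heavy chain, Myh4, was at 39770, 38170 and 42930 CPM in controls and at 47990, 43530 and 59230 CPM with SeMSNs. The groups did not overlap, but control 3 and SeMSNs 2 were close, and the log2 fold change was 0.32 ± 0.25 (adjusted p = 0.598, edgeR). The other fast heavy chains overlapped between groups. Myh1 was at 3424, 7459 and 4250 CPM in controls and at 4967, 3158 and 8821 CPM with SeMSNs, a log2 fold change of 0.16 ± 0.42 (adjusted p = 0.896, edgeR). Myh2 was at 5350, 4841 and 3060 CPM in controls and at 4239, 3169 and 7616 CPM with SeMSNs, a log2 fold change of 0.18 ± 0.36 (adjusted p = 0.861, edgeR). SeMSNs 3 was the highest library for both, and without it both values were negative, at −0.31 for Myh1 and −0.25 for Myh2. Of the possible 100-base stretches of these transcripts, 9.24% of Myh1, 7.8% of Myh2 and 3.85% of Myh4 occur in another heavy chain, so part of their reads could be assigned to either.

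SeMSNs libraries were above all controls for 7 of 11 fast genes and 8 of all 36 (22.2%), against 10.3% of all genes tested. The remaining fast genes past this line were Tnnt3 and Mybpc2, the fast myosin-binding protein C, with log2 fold changes of 0.35 and 0.30. No member had all SeMSNs libraries below all controls, against 8.14% of all genes. The summed fast level was 102600, 93660 and 99390 CPM in controls 1 to 3 and 125200, 113800 and 140500 CPM in SeMSNs 1 to 3. These sums did not overlap, but they contain the 7 genes already counted and are not a separate result. Myh4 alone gave 39770 CPM of the sum in control 1. Without control 1 the fitted level of 1 of the fast genes was lower with SeMSNs, without control 3 that of 1, and without SeMSNs 3 that of 2.

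**Figure D3:**
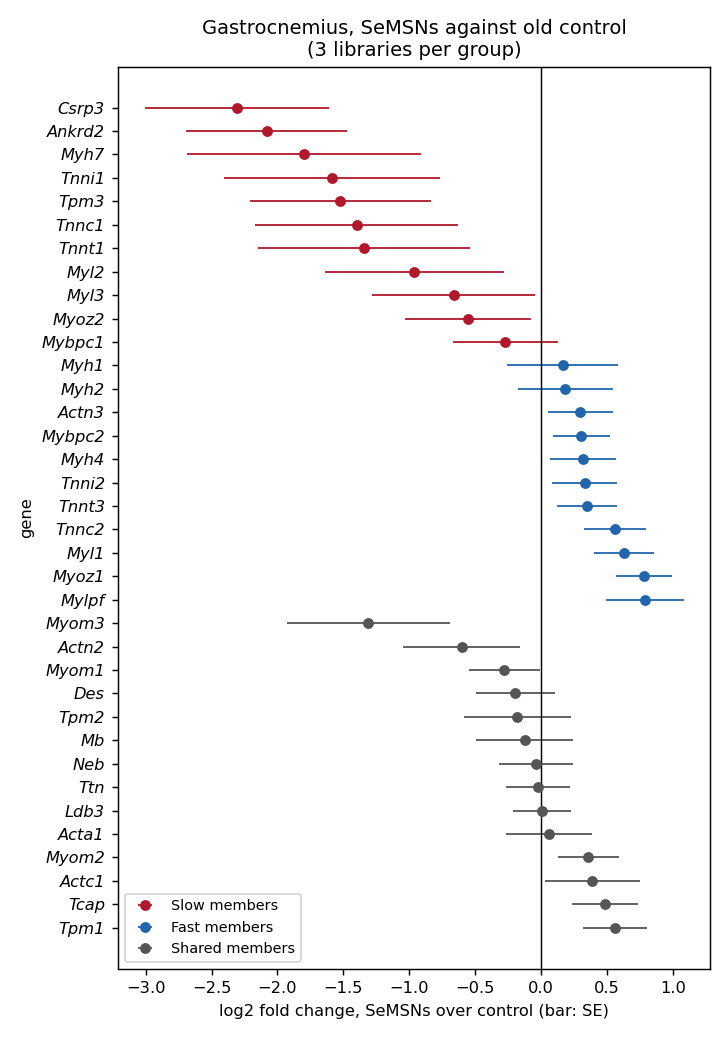
Log2 fold change in gastrocnemius (SeMSNs over control, x axis; bars are 1 SE, 3 libraries per group) of slow (red), fast (blue) and shared (grey) genes. All slow points lie left of 0, down to −2.31 for Csrp3, and all fast points lie right of it, up to 0.78, with the longest bars on the slow genes.

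The shared genes differed among themselves. Tpm1, the tropomyosin of fast and cardiac muscle, was at 9193, 7408 and 9871 CPM in controls and at 13940, 10910 and 14090 CPM with SeMSNs, without overlap. Its log2 fold change was 0.56 ± 0.24 (adjusted p = 0.379, edgeR). Myom3, an M-band protein, was at 573, 356.2 and 90.65 CPM in controls and at 110.3, 72.29 and 228.3 CPM with SeMSNs. It had the library order of the slow genes, with controls 1 and 2 on top and SeMSNs 2 lowest, and a log2 fold change of −1.31 ± 0.62 (adjusted p = 0.408, edgeR). Controls 1 and 2 were above all SeMSNs libraries for 4 of 14 shared genes. The others were Actn2, Myom1 and Des, each lowest in control 3.

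Tcap, the titin cap of the Z-disc, was at 3340, 2300 and 2756 CPM in controls and at 4013, 3117 and 4588 CPM with SeMSNs, with 1 SeMSNs library below the highest control. Myom2, the M-protein of fast fibres, was at 1575, 1998 and 1729 CPM in controls and at 1812, 2260 and 2709 CPM with SeMSNs. Their log2 fold changes were 0.48 ± 0.25 (adjusted p = 0.437, edgeR) and 0.35 ± 0.23 (0.529). The giant proteins were nearly level between groups, with log2 fold changes of −0.03 ± 0.24 for Ttn and −0.04 ± 0.28 for Neb, as was Acta1 at 0.06 ± 0.33 (adjusted p from 0.953 to 0.970, edgeR). The median of the shared genes, −0.03, changed sign with upper quartile scaling (0.02), without SeMSNs 2 (0.069), without control 1 (0.15) and without both controls 1 and 2 (0.42).

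Isoform shares compare genes within a library and so do not depend on how libraries are scaled. Of the summed FPKM of the 4 adult heavy chains, Myh4 made up 78%, 76% and 86.6% in controls 1 to 3 and 84.8%, 88.4% and 79.6% in SeMSNs 1 to 3. Myh7 made up 7.01%, 2.48% and 0.406% in the controls and 0.893%, 0.309% and 1.06% with SeMSNs. Myh2 ranged from 5.26% to 8.95% and Myh1 from 5.76% to 13.3% over the 6 libraries. Myh4 was the main heavy chain in every library, and the slow share differed more among the 3 controls than between the groups. The Myh7 share was 3.30% ± 3.38 in controls and 0.754% ± 0.394 with SeMSNs (SD, n = 3), a difference of −2.55 percentage points with overlapping groups, and −0.69 points without control 1.

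The slow shares of the other sarcomere isoform pairs had the same highest and lowest libraries. The slow essential light chain Myl3 made up 34.2%, 17.7% and 7.14% of Myl3 plus Myl1 in controls 1 to 3, and 9.97%, 3.94% and 13.5% in SeMSNs 1 to 3. The slow troponin I Tnni1 made up 2.69%, 1.07% and 0.234% of Tnni1 plus Tnni2 in controls, and 0.456%, 0.141% and 0.594% with SeMSNs. For Myl3, Tnni1 and the pairs of troponin T, troponin C and regulatory light chain, the highest share was in control 1 and the lowest in SeMSNs 2, and all groups overlapped. Outside the sarcomere, the slow calcium pump Atp2a2 made up 2.35%, 1.4% and 0.406% of the summed FPKM of both pumps in controls 1 to 3, and 0.592%, 0.239% and 0.578% in SeMSNs 1 to 3. Its highest and lowest libraries were those of Myh7. The slow calsequestrin Casq2, a calcium store protein, made up 13.8%, 8.76% and 0.753% of both calsequestrins in controls and 1.66%, 1.2% and 2.42% with SeMSNs. Here control 1 was again the highest, but control 3 was the lowest, below all SeMSNs libraries.

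**Figure D4:**
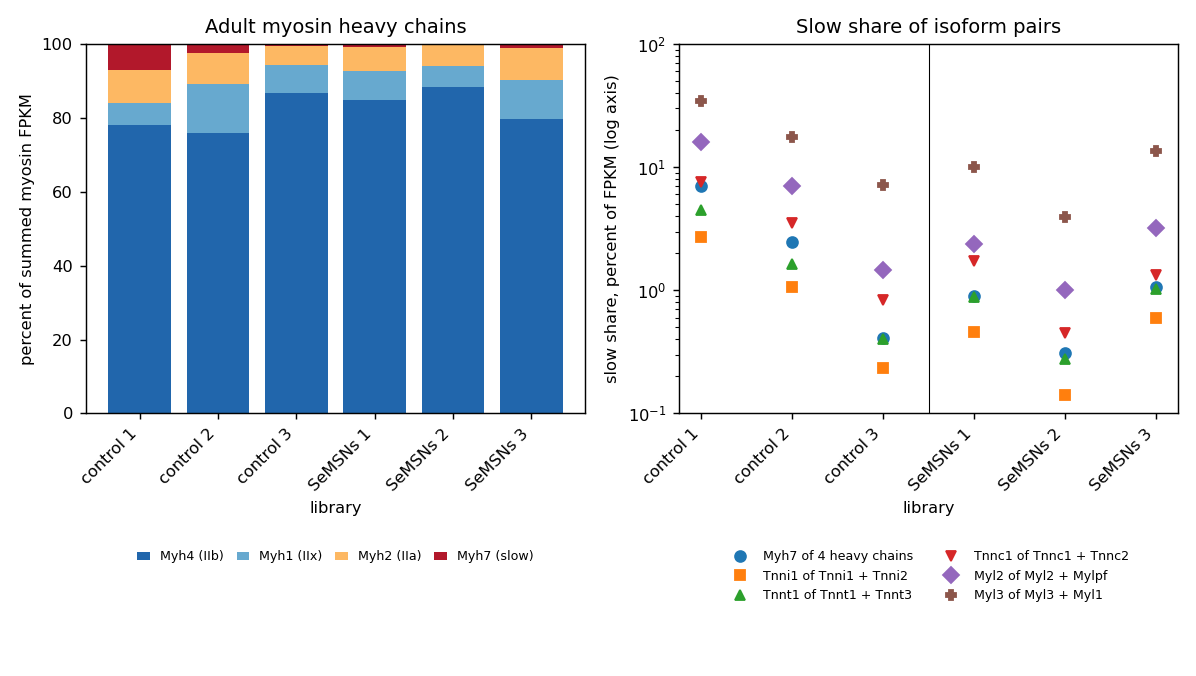
Left, share of each adult myosin heavy chain in their summed FPKM per gastrocnemius library (stacked bars, percent). Right, share of the slow isoform in its pair or, for Myh7, in the 4 heavy chains (points, percent, log axis): control 1 is the highest and SeMSNs 2 the lowest, from 7.01% to 0.309% for Myh7, and control 3 lies among the SeMSNs libraries.

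Related muscle genes in gastrocnemius showed the fast side more uniformly than the slow side. Of 21 fast-fibre metabolic and calcium-handling genes, 21 had higher fitted levels in SeMSNs muscle (median log2 fold change 0.51), and 10 (47.6%) had all SeMSNs libraries above all controls, against 10.3% of all genes. This list shares Actn3 with the fast members. Like the other lists it was chosen with earlier results of these data known, so its counts are not independent evidence. Eno3, the muscle enolase, was at 1448, 1468 and 1905 CPM in controls and at 3068, 2761 and 2678 CPM with SeMSNs, a log2 fold change of 0.82 ± 0.22 (adjusted p = 0.307, edgeR). Ldha, the lactate dehydrogenase chain of fast muscle, was 0.91 ± 0.27 higher on the log2 scale (adjusted p = 0.312, edgeR). None of the 21 passed the adjusted test, and 7 (33.3%) had an unadjusted p under 0.05, against 13% of all genes.

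Slow and oxidative companion genes did not follow the slow isoforms as a list: 9 of 21 had higher and 12 lower fitted levels, with a median of −0.05, and Mb is counted in this list as well. Tnfrsf12a, the TWEAK receptor, was at 68.04, 66.98 and 35.37 CPM in controls and at 16.01, 24.45 and 15.8 CPM with SeMSNs, a log2 fold change of −1.60 ± 0.29 (adjusted p = 0.181, edgeR). Cox7a1, a muscle subunit of cytochrome oxidase, was 0.57 ± 0.18 higher on the log2 scale (adjusted p = 0.312, edgeR). Of 38 other sarcomere genes tested, 15 had higher and 23 lower fitted levels, with a median of −0.10. Xirp1, a protein of repairing myofibrils, was at 1216, 1701 and 440.9 CPM in controls and at 144.1, 300.9 and 349.4 CPM with SeMSNs, a log2 fold change of −2.08 ± 0.50 (adjusted p = 0.293, edgeR). Flnc, the muscle filamin of the Z-disc, had a log2 fold change of −1.63 ± 0.47 (adjusted p = 0.312, edgeR). Controls 1 and 2 were again the highest libraries for both.

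All 10 developmental and regeneration genes tested had lower fitted levels with SeMSNs, with a median of −0.26. Their summed level was 556.7, 381.4 and 233.4 CPM in controls 1 to 3 and 252.1, 315.5 and 258.1 CPM in SeMSNs 1 to 3. By this sum control 3 was below every SeMSNs library. Ncam1, an adhesion molecule of immature and denervated fibres, had a log2 fold change of −1.42 ± 0.42 and Myl6b, a myosin light chain counted among the other sarcomere genes too, of −1.93 ± 0.81 (adjusted p = 0.312 and 0.370, edgeR). Of 35 fibre type regulators 10 were higher and 25 lower, with a median of −0.26, and 8 (22.9%) had all SeMSNs libraries below all controls, against 8.14% of all genes. Rcan1, an inhibitor and target of calcineurin, was at 169.9, 195.9 and 208.7 CPM in controls and at 55.93, 73.89 and 83.28 CPM with SeMSNs. The controls were close together here, with control 3 the highest, and the log2 fold change was −1.43 ± 0.21 (adjusted p = 0.120, edgeR). Tead4, a factor that binds MCAT, had a log2 fold change of −1.20 ± 0.28 (adjusted p = 0.292, edgeR). The adjusted edgeR test called 0 genes of these lists. At an unadjusted p under 0.05, where 13% of all genes stood (6.27% higher, 6.71% lower), there were 1 higher and 2 lower companion genes (14.3%) and 3 higher and 5 lower other sarcomere genes (21.1%). There were also 3 lower developmental genes (30%) and 8 lower regulators (22.9%).

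The summed levels of markers of other cell types in gastrocnemius overlapped between the groups. All 8 macrophage markers had lower fitted levels with SeMSNs, with summed levels of 47.6 to 71.8 CPM in controls and 32.7 to 49.9 CPM with SeMSNs, and all 6 Schwann cell and nerve markers did, at 78.6 to 117 against 56.1 to 79.5 CPM. Neither list was highest in control 1, the library highest for the slow genes. The 8 markers of the neuromuscular junction and denervation summed to 103 to 139 CPM in controls and 92.1 to 106 CPM with SeMSNs, highest in control 1. The cardiac markers, mostly Myh6, summed to 12.5 to 36.5 CPM in controls and 9.04 to 18.7 CPM with SeMSNs, also highest in control 1. The summed levels of smooth muscle, endothelial, fibroblast, tendon, adipocyte, satellite cell and red blood cell markers overlapped between the groups like those of the lists above. No marker of any list passed the adjusted test. Their part in the levels of the slow and fast genes was not tested.

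In kidney the members were near the floor, at 0.0138% to 0.0166% of all counts, and 15 of 36 passed the filter on low counts. The adjusted edgeR test called 0 of these (1 of 15051 genes, 0.00664%), as did DESeq2, which called 0.173% of all genes, and limma, which called 0 genes. At an unadjusted p under 0.05 there was 1 (6.67%), the slow and cardiac troponin C Tnnc1, which was higher, against 6.11% of all genes in either direction and 2.52% higher. The log2 fold change was above 0 for 11 of 15 (73.3%), against 50.4% of all genes. The 3 highest in control by FPKM were tropomyosins, which nonmuscle cells also make. Tpm3 was at 63.1, 53.42 and 83.48 CPM in controls and at 62.05, 50.77 and 56.45 CPM with SeMSNs (log2 fold change −0.24 ± 0.18, adjusted p = 0.791, edgeR). Tpm1 had a log2 fold change of −0.09 ± 0.15 (adjusted p = 0.905, edgeR) and Tpm2 of 0.42 ± 0.27 (0.779), all with overlapping groups, and without control 3 that of Tpm1 was 0.069. SeMSNs libraries were above all controls for 3 of 15 members (20%), against 6.59% of all genes, all 3 at a few CPM or less: Tnnc1, Mylpf and Myom1, with log2 fold changes of 0.62, 0.36 and 0.19.

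In brain 1 control library held muscle transcripts. Control 2 had the highest level of the 6 brain libraries for 11 of 11 fast genes, 11 of 14 shared genes and 5 of 11 slow genes, and it was more than 10 times the next library for 10 fast, 4 shared and 1 slow gene. That slow gene was Myoz2, which had only 10 counts in control 2 and did not pass the filter on low counts. The brain genes named here apart from Acta1, Tnnt3, Tpm1 and Tnnc2 were chosen after their values were seen. Myh4 was at 1.63, 355.4 and 1.78 CPM in controls 1 to 3 and at 1.25, 1.60 and 1.52 CPM in SeMSNs 1 to 3. Tnnt3 was at 0.787, 308.5 and 0.833 CPM in controls and at 0.812, 1.60 and 0.653 CPM with SeMSNs. Tnnc2, which did not pass the filter on low counts, was at 81.22 CPM in control 2 and at 0.218 to 0.496 CPM in the others. Outside these genes, Ckm, the muscle creatine kinase, was at 189.1 CPM in control 2 and at 0.165 to 0.326 CPM in the other 5 brain libraries. The 36 members took 0.207% of counts in control 2, against 0.0326% to 0.0404% in the others.

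The excess in brain control 2 was, by list, largest for the fast genes. Measured over the median of the other 5 brain libraries and divided by the gene's mean CPM in gastrocnemius, it had a median of 1.29% for the fast genes (0.198% to 1.56%), 0.646% for the shared and 0.191% for the slow ones. Among the fast genes it was highest for Tnnt3 (1.56%), Myl1 (1.5%) and Tnni2 (1.48%), and lowest for Myh2 (0.198%) and Myh1 (0.469%). Of all members Tpm3 (6.44%) and Tpm1 (1.99%), tropomyosins that brain makes itself, had the largest values.

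**Figure D5:**
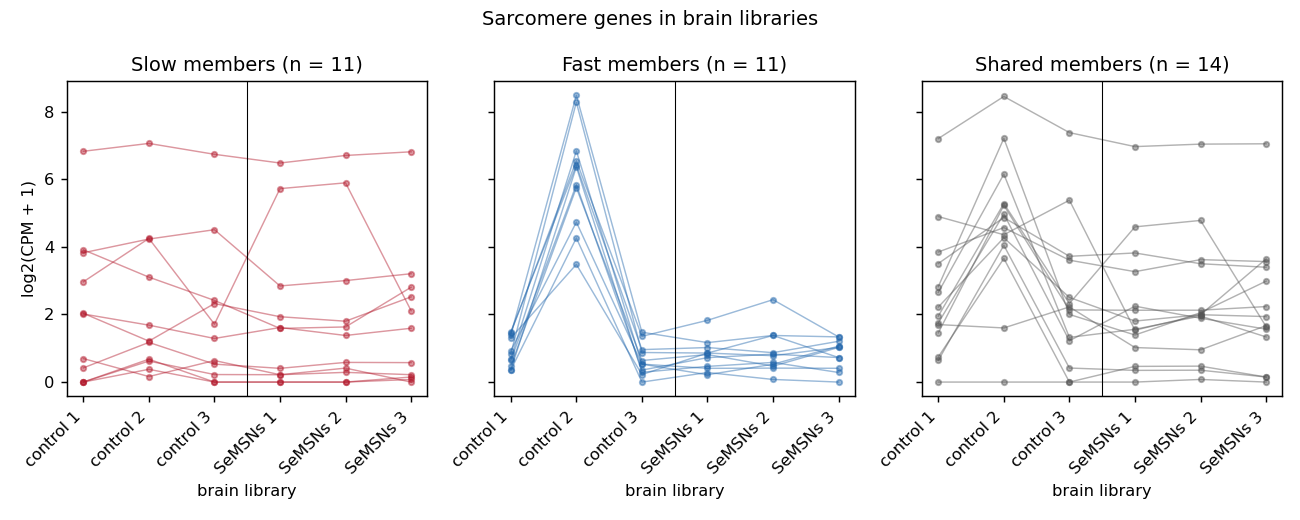
Level of each gene in the 6 brain libraries, as log2 of CPM plus 1, with 1 line per gene and panels for slow, fast and shared genes. All 11 fast lines peak in control 2, where Myh4 reaches 355.4 CPM, while control 2 is the highest library for 5 of the 11 slow lines.

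With all 6 brain libraries, 25 of 36 members passed the filter and the adjusted edgeR test called 0 of them (1 of 16082 genes, 0.00622%). DESeq2 called 2 of the members (8%) and 668 of all genes (4.15%), and limma 0 members and 1 gene (0.00622%). At an unadjusted p under 0.05 there were 11 of 25 (44%), all lower with SeMSNs, against 15.4% of all genes, 8.03% lower and 7.4% higher. The log2 fold change was above 0 for 3 of 25 (12%), against 51.2%, and all SeMSNs libraries were below all controls for 5 (20%), against 10.9%, and above them for 0, against 9.94%. Without control 2, 3 of 26 members had an unadjusted p under 0.05, all lower, against 10.7% of all genes. Of the 8 fast genes tested with control 2, all 8 were lower with SeMSNs. Of the 8 tested without it, 3 were lower and 5 higher. Acta1 had a log2 fold change of −3.74 ± 1.53 with all libraries (adjusted p = 0.313, edgeR) and −0.22 without control 2. Tnnt3 went from −6.65 ± 2.46 (adjusted p = 0.289, edgeR) to 0.33, and Tpm1 from −0.77 ± 0.33 (0.327) to −0.28.

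A few members in brain did not follow control 2. Myh7 was at 13.16, 17.75 and 21.71 CPM in controls 1 to 3 and at 6.173, 7.002 and 8.214 CPM in SeMSNs 1 to 3. Every SeMSNs library was below every control, with a log2 fold change of −1.30 ± 0.23 (unadjusted p = 0.000936, adjusted p = 0.251, edgeR). The adjusted p of DESeq2 was 0.000318. Actn2, an alpha-actinin of the Z-disc that neurons also make, was at 28.73, 19.48 and 40.6 CPM in controls and at 1.895, 2.977 and 11.48 CPM with SeMSNs. The groups did not overlap, and its log2 fold change was −2.44 ± 0.68 with adjusted p of 0.255 by edgeR and 0.00769 by DESeq2. Without SeMSNs 3 the edgeR test called Myh7 (−1.41, adjusted p = 0.0154), Actn2 (−3.60, adjusted p = 0.00393) and the slow troponin T Tnnt1 (−2.08, adjusted p = 0.0441). These were 3 of 28 members tested (10.7%) in a fit that called 17.2% of all genes, so the members' share was below that of all genes. Striatal neuron markers summed to 1042, 322.7 and 1495 CPM in the controls and 304.3, 281.9 and 143.1 CPM with SeMSNs, and their part in these levels was not tested.

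Mybpc1 and Neb were high in SeMSNs libraries 1 and 2 of brain. Mybpc1 was at 51.71, 58.33 and 3.318 CPM in SeMSNs 1 to 3 and at 6.804, 17.99 and 2.277 CPM in controls, a log2 fold change of 2.07 ± 1.08 (adjusted p = 0.395, edgeR). Neb was at 23.07, 26.46 and 2.121 CPM with SeMSNs and at 2.868, 37.83 and 3.998 CPM in controls (adjusted p = 0.944, edgeR). Cerebellar neuron markers summed to 3439, 3098 and 323.7 CPM in SeMSNs 1 to 3 and to 298.8 to 445.1 CPM in controls. The same 2 libraries were high in all 3 measures, and the part of the cerebellar signal in the gene levels was not tested.

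Whether the effect of SeMSNs differed between tissues was tested on the difference itself. The labels give the same replicate numbers in each tissue and do not say whether tissues share mice, and the fit took all libraries as independent. For gastrocnemius minus kidney 0 of 36 members passed edgeR's adjusted test, where 0.0111% of 18001 genes did, and 1 had an unadjusted p under 0.05, against 6.57% of all genes. This was Tnnc1, with a log2 difference of −2.04 ± 0.95 (adjusted p = 0.755, edgeR). Only 15 of the 36 passed the filter on low counts within kidney, and the rest were near the floor there. Csrp3 and Actc1 had 0 counts in every kidney library, with SEs of 8812 and 906.3. For such genes this test could not show a difference. For gastrocnemius minus brain 0 members passed as well, where 0.0333% of genes did, and 20 of 36 (55.6%) had an unadjusted p under 0.05, against 11.7% of all genes. This fit held brain control 2, and the 11 fast genes, each highest in that brain library, were among the 20. Only 25 of the 36 passed the filter on low counts within brain. The part of brain control 2 in this count was not tested. The smallest p was that of Tnni2, the fast troponin I, with a log2 difference of 7.18 ± 1.88 (adjusted p = 0.173, edgeR), a gene at 113.3 CPM in brain control 2 and at most 0.619 CPM in the other brain libraries.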

How the data were processed

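Polyadenylated RNA of 18 libraries was sequenced by the authors, who deposited a table of read counts per gene and of FPKM values for the same libraries. Counts were deposited as whole numbers without normalization, and FPKM values were made by the authors from them per gene length and library size: the 2 columns gave the same length in every library for 17224 genes, with a relative spread of at most 7.21e-05. The genome build was GRCm38 per the submitters' processing notes. The aligner, the counter, the annotation release and the strand setting were not given in the sources used here. Reads without molecular identifiers are not independent molecules, so intervals and limits from counts cover counting error only.

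Here counts were fitted per tissue with edgeR 4.0.16 (quasi-likelihood, TMM scaling, genes kept by a minimum count of 10 and total of 15) in R 4.3.3, SeMSNs against control, with Benjamini-Hochberg adjustment over all genes tested and a threshold of 0.05. Comparisons between tissues used 1 fit of all 18 libraries, taken as independent although tissues may share mice. CPM values are TMM-scaled within a tissue, and isoform shares come from FPKM. Alternatives were DESeq2 1.42.0, limma 3.58.1 on log2(FPKM + 1) or log2(FPKM + 0.1), other scalings and filters, a replicate block and leaving out each library. Scripts were tested on simulated data. No library pair was a duplicate: replicates differed by 16.8 to 137 in chi-square per degree of freedom.

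The members and lists were chosen with earlier results of these data known, so no count over them is independent evidence. Named in gastrocnemius were the heavy chains, the 4 genes of each member list with the smallest p and the 2 smallest p of each related list. In kidney and brain they were the 3 highest by mean FPKM over both groups, among members tested (in brain the untested Tnnc2 was above Tpm1 and is given too). Other genes named were chosen after their values were seen. SeMSNs libraries carry the numbers 1, 2 and 4 in one label and are numbered 1 to 3 here. Upstream windows came from RefSeq for GRCm38.p6.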

Additional observations from a re-analysis of the deposited data

How the results depend on the processing

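In gastrocnemius the count of members past the adjusted threshold was 0 in edgeR, 1 with DESeq2 and 0 to 3 when single libraries were left out, and the count over all genes, 3 in edgeR, was 162 with DESeq2, 31 with no filter on low counts, 30 with all 18 libraries in the fit, 74 without both controls that were high for slow genes, and 0 to 335 when single libraries were left out. The highest of these came without control 3. Leaving out both high controls also reversed Myh7 to 1.27, Myom3 to 0.60, Ankrd2 to 0.20, Csrp3 to 0.63 and Tpm3 to 0.73 on the log2 scale. Left-out libraries moved the log2 fold change of Myh1 between −0.31 and 0.55 (−0.05 without control 1) and that of Myh2 between −0.25 and 0.42 (−0.03 without control 3). The Myh7 share, −2.55 percentage points from FPKM, was −3.58 from counts and −2.54 with Myh3 and Myh8 added, and lay between −3.99 and −0.69 when libraries were left out. In kidney 0 members were called in every setting, and the count over all genes, 1 in edgeR, was 26 with DESeq2, 0 with limma at either pseudocount, 5 with no filter, 3 with a robust fit, 0 with the replicate block and 0 to 4 with libraries left out. Tpm1 ranged from −0.21 to 0.069. In brain the count of members was 0 in edgeR, 2 with DESeq2, 1 with all 18 libraries (Tnni2) and 0 to 3 with libraries left out (Myh7, Tnnt1 and Actn2 without SeMSNs 3), and over all genes 1 in edgeR, 668 with DESeq2, 2 with the replicate block, 190 with all 18 libraries and 0 to 2852 with libraries left out (the highest without SeMSNs 3). Brain Tnnt3 ranged from −7.24 to 0.33, the last without control 2. For the difference between gastrocnemius and brain, leaving out libraries gave 0 to 1 members. The causes were not tested. Deviations of libraries numbered alike here correlated at −0.17 to −0.02 in gastrocnemius, −0.01 to 0.03 in kidney and −0.06 to 0.12 in brain. Differently numbered ones reached 0.171 in gastrocnemius. With 3 libraries per group, and SeMSNs 3 carrying another number in its label, these values cannot settle whether libraries pair. A replicate block called 0 members in gastrocnemius with medians of −1.04 for slow and 0.33 for fast genes. Most members had too few counts in kidney to be tested, at library totals like those of the other tissues.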
